A study of Mus musculus with 30 samples.

Results

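The mitochondrial respiratory chain and ATP synthase are built mostly from proteins encoded in the nucleus, and 97 such genes stood among the 21652 genes of the count tables of white and brown fat described here. They were taken by symbol: every gene whose name begins with Nduf, Uqcr, Cox4, Cox5, Cox6, Cox7, Cox8 or Atp5, together with Sdha, Sdhb, Sdhc, Sdhd and Cycs. The pseudogene Cox5b-ps was left out. Complex I accounted for 46 of the genes, 8 of them assembly factors, complex II for 4, complex III for 8, complex IV for 20, cytochrome c for 1 and complex V for 18. Tissue came from male C57BL/6J mice of 7 to 8 weeks, kept 5 per cage with free access to food and water, and no genetic change is named for any group. The inguinal white fat depot (iWAT) and brown fat (BAT) were each taken from mice labelled as kept at 22 °C, from mice after 6 h at 6 °C and from mice after 24 h at 6 °C. Each of the 6 groups held 5 libraries of polyA RNA, 30 in all. The room is given as 24 ± 2 °C in the housing description and the control groups as 22 °C in their titles. The labels do not say whether replicates are separate animals or pools, so p-values measure only the spread between these samples, which may be technical.

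Electrons from NADH enter the chain at complex I, an L-shaped assembly whose core subunits carry the flavin and iron-sulphur clusters and whose many supernumerary subunits surround them. Electrons from succinate enter at complex II, and both routes pass through ubiquinone, complex III, the mobile carrier cytochrome c and complex IV, which reduces oxygen, while the protons pumped on the way drive the rotor of ATP synthase. In brown and cold-activated white adipocytes, uncoupling protein 1 lets protons return without making ATP, so that the chain runs fast and its energy is released as heat. Mouse brown fat is known for dense mitochondria with a full respiratory chain and an unusually small amount of ATP synthase, which has been ascribed to a scarce c-ring subunit.

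Promoter windows are shown first for 5 genes whose values are followed below: Cycs and Ndufaf4, which rose in both tissues, Cox7a1 and Cox8b, isoform genes of complex IV with the widest tissue differences among those that passed the test, and Atp5mc3, a c-ring gene that rose in iWAT and fell in BAT after 6 h. Each is the 250 bases before the annotated start, 5′ to 3′ on the gene's strand, from RefSeq on GRCm38.p6, while the counts were made on GRCm39. Capitals mark matches to 4 motifs searched on both strands: GCGCATGC, a core of the site for nuclear respiratory factor NRF1; TGACGTCA, the cAMP response element; CCGGAAG, a core of ETS-family sites such as that of NRF2; and AAGGTCA, the core bound by oestrogen-related receptors. The windows lie at chr6:50566570-50566819, minus strand (Cycs), chr4:24897833-24898082, plus strand (Ndufaf4), chr7:30183921-30184170, plus strand (Cox7a1), chr7:140900447-140900696, minus strand (Cox8b), and chr2:73911327-73911576, minus strand (Atp5mc3).
Cycs: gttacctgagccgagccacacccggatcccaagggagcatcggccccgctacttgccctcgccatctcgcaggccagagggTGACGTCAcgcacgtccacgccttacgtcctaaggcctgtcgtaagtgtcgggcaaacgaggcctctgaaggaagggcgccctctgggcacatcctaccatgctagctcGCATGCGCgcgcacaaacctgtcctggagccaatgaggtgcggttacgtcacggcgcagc
Ndufaf4: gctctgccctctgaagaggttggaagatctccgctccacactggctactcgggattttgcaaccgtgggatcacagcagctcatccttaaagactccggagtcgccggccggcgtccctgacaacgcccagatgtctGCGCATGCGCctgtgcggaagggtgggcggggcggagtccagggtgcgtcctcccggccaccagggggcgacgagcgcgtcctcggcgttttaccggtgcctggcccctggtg
Cox7a1: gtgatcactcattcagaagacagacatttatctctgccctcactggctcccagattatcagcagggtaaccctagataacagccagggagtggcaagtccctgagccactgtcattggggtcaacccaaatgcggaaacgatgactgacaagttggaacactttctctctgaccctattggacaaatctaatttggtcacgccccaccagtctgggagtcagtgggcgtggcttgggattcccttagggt
Cox8b: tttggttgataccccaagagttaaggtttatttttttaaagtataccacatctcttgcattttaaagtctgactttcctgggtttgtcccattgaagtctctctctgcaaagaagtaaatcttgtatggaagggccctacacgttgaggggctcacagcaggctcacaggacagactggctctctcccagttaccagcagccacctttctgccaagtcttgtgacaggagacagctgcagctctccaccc
Atp5mc3: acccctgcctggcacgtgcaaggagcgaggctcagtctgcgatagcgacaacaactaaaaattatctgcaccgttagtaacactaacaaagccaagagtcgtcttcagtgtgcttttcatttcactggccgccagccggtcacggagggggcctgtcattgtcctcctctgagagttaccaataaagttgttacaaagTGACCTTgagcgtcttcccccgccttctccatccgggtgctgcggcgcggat
In Cycs the NRF1 core begins 60 bases and the cAMP response element 169 bases before the start. In Ndufaf4 the NRF1 core is read on both strands in 2 overlapping matches, 113 and 111 bases before the start. Atp5mc3 holds the receptor core 52 bases before the start, and the windows of Cox7a1 and Cox8b hold none of the 4 strings.

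Of the 97 genes, 80 had a window in the RefSeq table. The NRF1 core stood in 10 of these 80, 12.5%, against 692 of all 27025 genes, 2.56%. Its carriers were Atp5mc2, Atp5me, Atp5mg, Cox6a1, Cycs, Ndufa11, Ndufa6, Ndufa8, Ndufaf4 and Sdhb. The cAMP response element stood in 5 genes, 6.25% (Cycs, Ndufa10, Ndufa11, Ndufb2 and Uqcrfs1), against 1.77% of all genes. The ETS core stood in 14, 17.5% against 7.83%, and the receptor core in 6, 7.50% against 4.70%. These matches are descriptions of the letters, not of bound sites. Among the genes with no window were Atp5f1a, Atp5mj, Cox4i1, Cox4i2, Cox6a2, Cox6c, Cox8c, Ndufa2, Ndufa4l2, Ndufaf6, Ndufb9, Ndufs1, Sdhc, Uqcrb, Uqcrc2 and Uqcrq.

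Libraries held 25345889 to 40986043 reads assigned to genes. The 97 genes took 1.76 ± 0.41% of the counts in iWAT at 22 °C (SD, n = 5) and 3.89 ± 0.11% in BAT at 22 °C. Some libraries stood apart over nearly the whole gene set. In iWAT at 22 °C, replicate 4 was the highest library for 90 of 94 genes, with a mean log2 CPM of 6.90 against 5.98 to 6.12 in the other 4. In cold iWAT, replicate 3 was the lowest for 84 genes at 6 h and for 76 at 24 h. In BAT at 6 h, replicate 1 was the highest for 89 genes and replicate 2 the lowest for 75. Levels are given below as scaled FPKM, the deposited FPKM (fragments per gene length and library size) after the TMM scale factors of the counts were applied to them. FPKM divides by the length of the whole gene model, 360 to 8086 bases here, so a gene with a long model has a low value. Processed copies of several of these genes lie elsewhere in the mouse genome, and how reads shared with such copies or with antisense genes were assigned is not given in the sources used here.

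At 22 °C the most abundant chain genes of both tissues belonged to complexes IV and V, with 1 gene of complex III among the first 5 of BAT. The order in BAT began with Cox6b1, a subunit facing the cytochrome c side of complex IV, at 1376 ± 81.6 scaled FPKM (SD, n = 5), followed by the catalytic ATP synthase subunit Atp5f1b at 1283 ± 35.7, Atp5f1a at 1189 ± 33.9, Cox8b at 1109.6 ± 153 and the Rieske protein Uqcrfs1 at 874 ± 22.8. Cox6b1 exceeded Atp5f1b by little more than its own SD, Atp5f1a and Cox8b lay within the SD of Cox8b, and Uqcrfs1 lay below Cox8b by more than that SD. In iWAT the order began with Cox8a at 369 ± 139, Cox6b1 at 342 ± 104, Atp5f1b at 339.8 ± 70.6, Cox6a1 at 298 ± 109.9 and Atp5f1a at 294 ± 69.8. No neighbours in this iWAT order differed beyond their spread. By group mean, the lowest of the tested genes in BAT and iWAT alike was Ndufb2, a small membrane-arm subunit of complex I with a gene model of 5628 bases, at 2.36 ± 0.319 and 0.926 ± 0.163. The iWAT mean of Cox6a2, 3.39 ± 7.51, rested on replicate 2 at 16.8, and its other iWAT libraries, at 0 to 0.0552, lay below Ndufb2. Among subunit sums, complex IV reached 7647 ± 489 scaled FPKM in BAT and 2358 ± 903 in iWAT, complex I 6332 ± 292 and 2179 ± 705, complex V 4686 ± 182 and 1604 ± 417, complex III 4135 ± 164 and 1197 ± 465, and complex II 1747 ± 45.2 and 436 ± 121.

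BAT was compared with iWAT at 22 °C to describe the resting difference between the tissues. With edgeR's quasi-likelihood test and Benjamini-Hochberg adjustment at 0.05, 88 of 94 tested chain genes were higher in BAT and 2 were lower, against 32.4% of all 14089 genes called higher and 34.5% called lower. The median log2 difference of the 94 genes was 1.47, against -0.04 over all genes. In 84 genes every BAT library lay above every iWAT library, which held for 26% of all genes. In bulk tissue, fewer cells of a type and less RNA per cell cannot be told apart. Markers of several cell types moved with this comparison and their part in it was not tested. Ucp1, the uncoupling protein itself, ranged at 22 °C from 5901 to 7968 scaled FPKM in BAT and from 5.51 to 399 in iWAT, and over all temperatures Zic1 was at 0 in 12 of 15 iWAT libraries and in none of BAT. Skeletal muscle markers summed to 252 to 8369 CPM in BAT and 3.03 to 3271 in iWAT, and 4 of 11 tested, Mb, Myh1, Myh2 and Myh7, were called higher in BAT, with no call of lower. Of the brown-type markers, which include Ucp1 and Zic1, Lhx8 alone was not called (0.81 ± 0.37, adjusted p = 0.0551). Progenitor and fibroblast markers summed to 316 to 571 CPM in BAT and 967 to 2097 in iWAT, and macrophage markers to 111 to 188 and 240.1 to 630, with all 6 of each called lower in BAT. Adipocyte markers summed to 12914 to 13570 CPM in BAT and 18165 to 23916 in iWAT, and all 6 were called lower in BAT. Endothelial markers summed to 519 to 694 CPM in BAT and 286 to 541 in iWAT.

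The complexes did not differ by one amount. Median log2 differences were 1.46 for complex I, 2.01 for complex II, 1.79 for complex III, 1.52 for complex IV and 1.31 for complex V, and cytochrome c differed by 2.16. Within complex I the 7 core subunits had a median of 1.90, the 30 supernumerary subunits 1.41 and the 8 assembly factors 1.12. The flavin-binding core subunit Ndufv1 stood at 46.9, 52.6, 59.7, 88.7 and 52.5 scaled FPKM in the iWAT libraries and at 314, 299, 283, 306 and 283 in those of BAT, a log2 difference of 2.31 ± 0.14, adjusted p = 6.1e-14. The matrix-side core proteins of complex III were farther apart. Uqcrc1 measured 42.5, 48.2, 59.0, 80.5 and 48.3 scaled FPKM in iWAT and 353, 346, 323, 349 and 341 in BAT, a log2 difference of 2.62 ± 0.16, adjusted p = 5.4e-14. Its partner Uqcrc2 differed by 2.38 ± 0.14. For both, the lowest BAT library lay far above the highest iWAT library.

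The largest differences that passed the test belonged to the heart and muscle type isoforms of complex IV. Cox7a1 (ENSMUSG00000074218), the striated muscle and brown fat form of a small subunit, measured 13.9, 25.6, 31.7, 63.8 and 9.92 scaled FPKM in iWAT and 589.7, 477, 422, 472 and 482 in BAT, a log2 difference of 4.08 ± 0.40, adjusted p = 8.1e-10. Cox8b (ENSMUSG00000025488), the corresponding form of the smallest subunit, measured 108, 149, 161, 382 and 86.0 in iWAT and 1367, 1085, 1031, 1099 and 966 in BAT, a log2 difference of 2.65 ± 0.30, adjusted p = 1.1e-08. In both genes iWAT replicate 4 was the highest and replicate 5 the lowest of their group, and no iWAT library reached the BAT range. The third muscle isoform, Cox6a2, behaved unlike these and is described with the muscle markers.

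Complex V held most of the exceptions. Atp5if1 (ENSMUSG00000054428), the inhibitor that stops ATP synthase from running backwards, was lower in BAT: the iWAT libraries measured 9.54, 8.79, 7.45, 9.70 and 8.12 scaled FPKM and the BAT libraries 4.29, 3.55, 3.11, 4.57 and 4.65, without overlap, a log2 difference of -1.11 ± 0.15, adjusted p = 2.7e-07. The genes Atp5mc1, Atp5mc2 and Atp5mc3 encode the same mature c-ring protein behind different import sequences. Atp5mc3 was the most abundant of them in iWAT, with 123, 102, 96.3, 159 and 120.1 scaled FPKM, against 101, 88.1, 94.2, 100.2 and 100.1 in BAT, a log2 difference of -0.31 ± 0.13, adjusted p = 0.0360. The groups overlapped in Atp5mc3, and without iWAT replicate 4 its difference was -0.19 and no longer passed, nor did it without iWAT replicate 1 or 5 or BAT replicate 2 or 3. Atp5mc2 was higher in BAT by 0.91 ± 0.16 (adjusted p = 1.6e-05), whereas Atp5mc1 differed by -0.38 ± 0.32 and missed the test (adjusted p = 0.291). Atp5pf, a peripheral stalk subunit, also missed it at -0.23 ± 0.16, adjusted p = 0.214, as did Ndufb1 of complex I at 0.40 ± 0.22. By contrast the catalytic head of complex V followed the other complexes, with Atp5f1a at 2.01 ± 0.13 and Atp5f1b at 1.92 ± 0.13. On the deposited FPKM without the count-based scale factors, tested with limma, the split was 81 higher and 4 lower, the median over all genes moved to -0.58 on log2(FPKM + 0.1), Atp5mc1 was among the lower genes, and the assembly factor Ndufaf3 turned from 0.58 to -0.02.

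**Figure D1:**
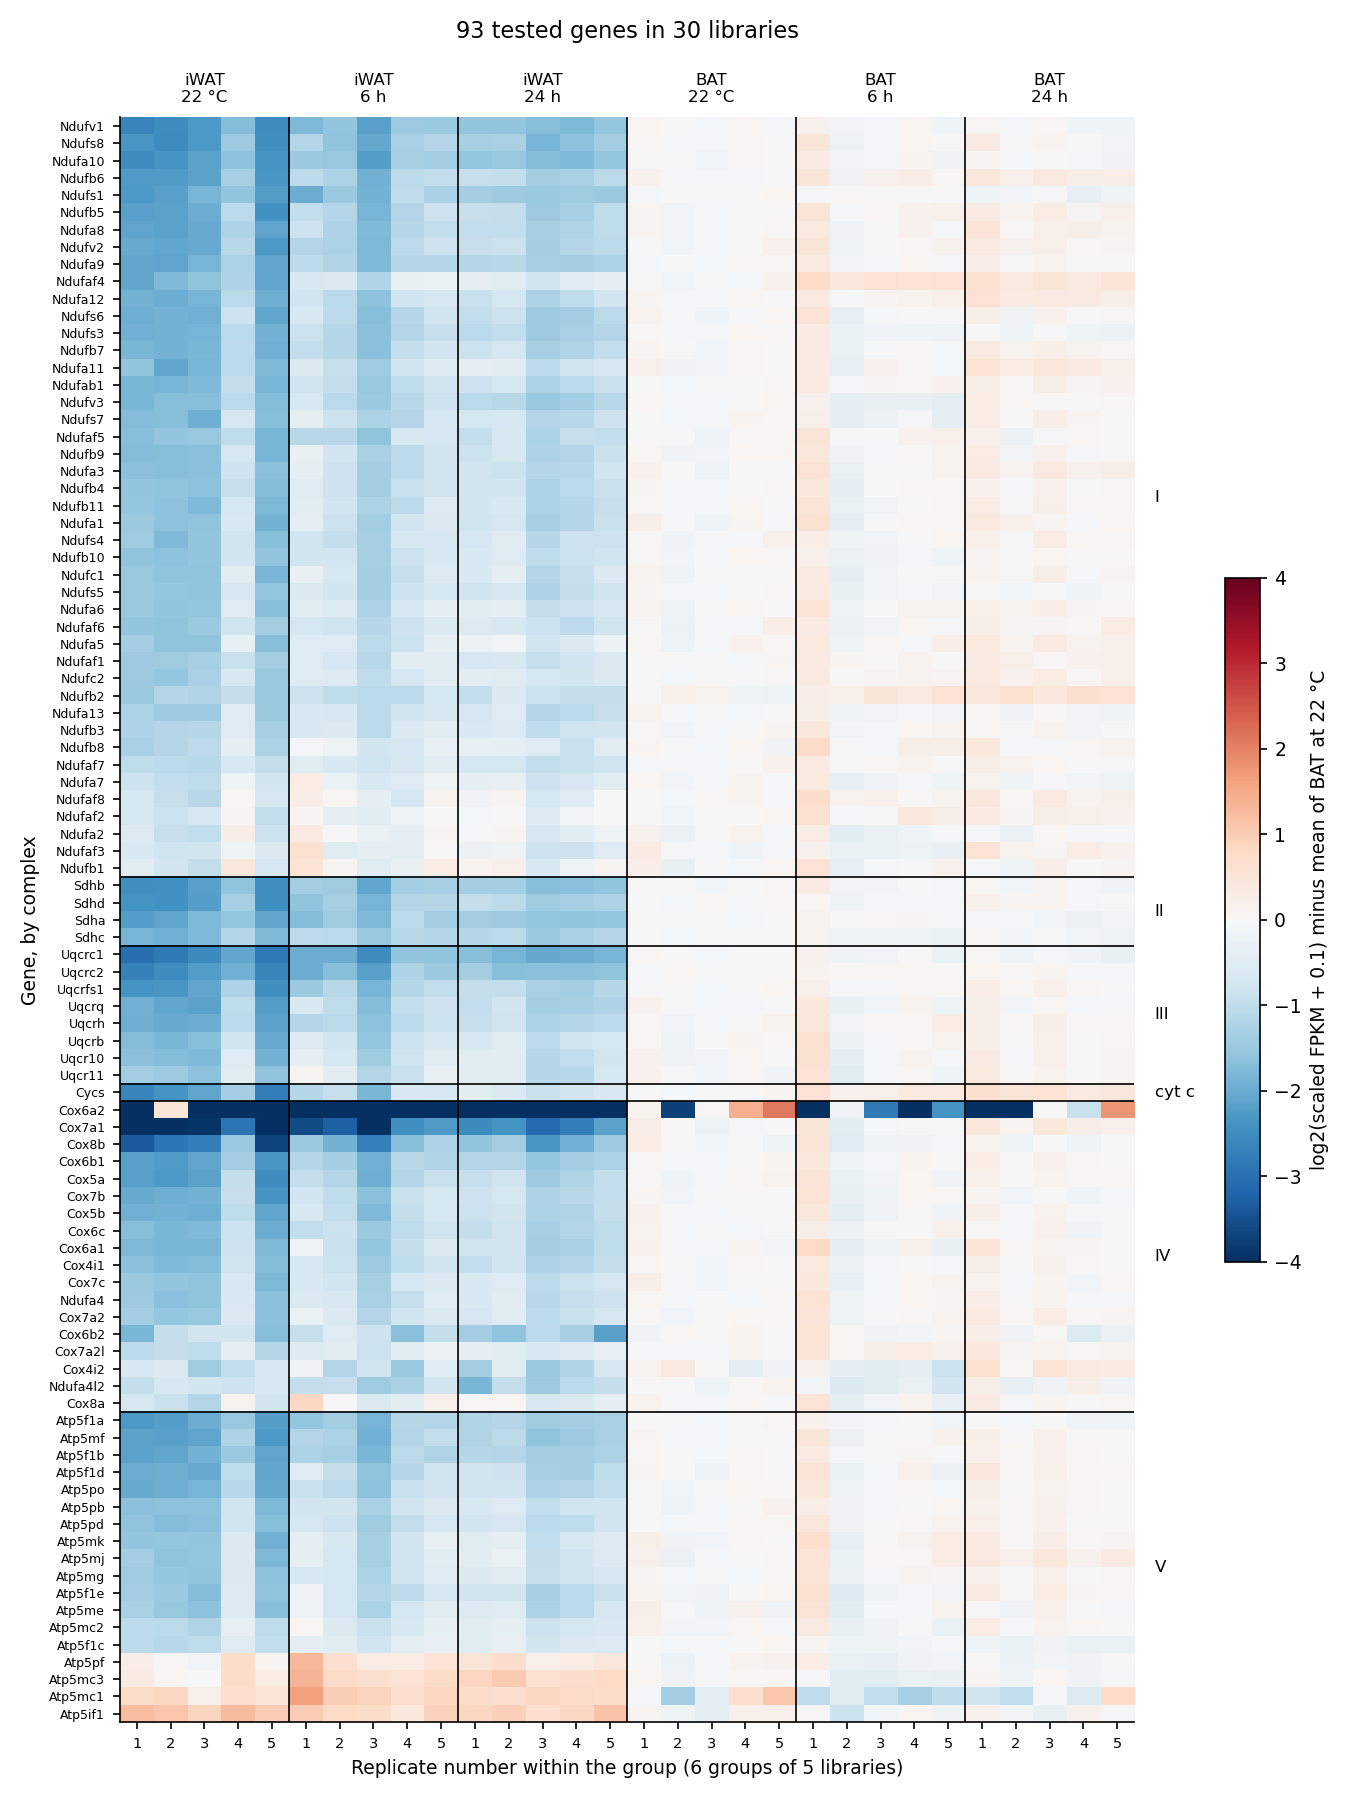
Levels of 93 chain genes (vertical axis, by complex) in 30 libraries (horizontal axis, 6 groups of 5), each coloured by log2(scaled FPKM + 0.1) minus the gene's mean in BAT at 22 °C, with the colour scale ending at -4 and 4. Nearly all genes are blue (lower) in iWAT, less so in the cold groups and in replicate 4 of the 22 °C group, while Atp5if1, Atp5mc1, Atp5mc3 and Atp5pf are at or above the BAT level in iWAT and Cox6a2 changes from library to library.

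In iWAT, cold was followed by higher RNA of most of the chain. After 6 h at 6 °C, 63 of 93 tested genes rose and none fell (edgeR quasi-likelihood test), where 12.9% of all 13689 genes rose and 10.1% fell. At 24 h, 56 rose and none fell, against 12.8% and 10.1% of all genes. The median log2 change of the 93 genes was 0.60 at 6 h and 0.56 at 24 h, against -0.03 and -0.04 over all genes. Both comparisons used the same 5 control libraries. Of the 93 genes, 51 passed at both times, 12 at 6 h alone, 5 at 24 h alone and 25 at neither, which is no test of a difference between times.

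The rise was spread over all complexes. Complex I had 30 of 45 genes up at 6 h and 27 at 24 h. Core subunits accounted for 6 of 7 at both times, supernumerary subunits for 20 and 17 of 30, and assembly factors for 4 of 8 at both. All 4 genes of complex II rose at 6 h and 3 at 24 h, when the flavoprotein Sdha missed the threshold at 0.40 ± 0.14, adjusted p = 0.0544. Complex III had 7 of 8 genes up at 6 h and 6 at 24 h. Complex IV had 9 of 17 and 7 of 17, and complex V 12 of 18 at both times. Median changes by complex lay between 0.58 (complexes I, II and V) and 0.70 (complex III) at 6 h, and between 0.52 (complex IV) and 0.72 (complex III) at 24 h.

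**Figure D2:**
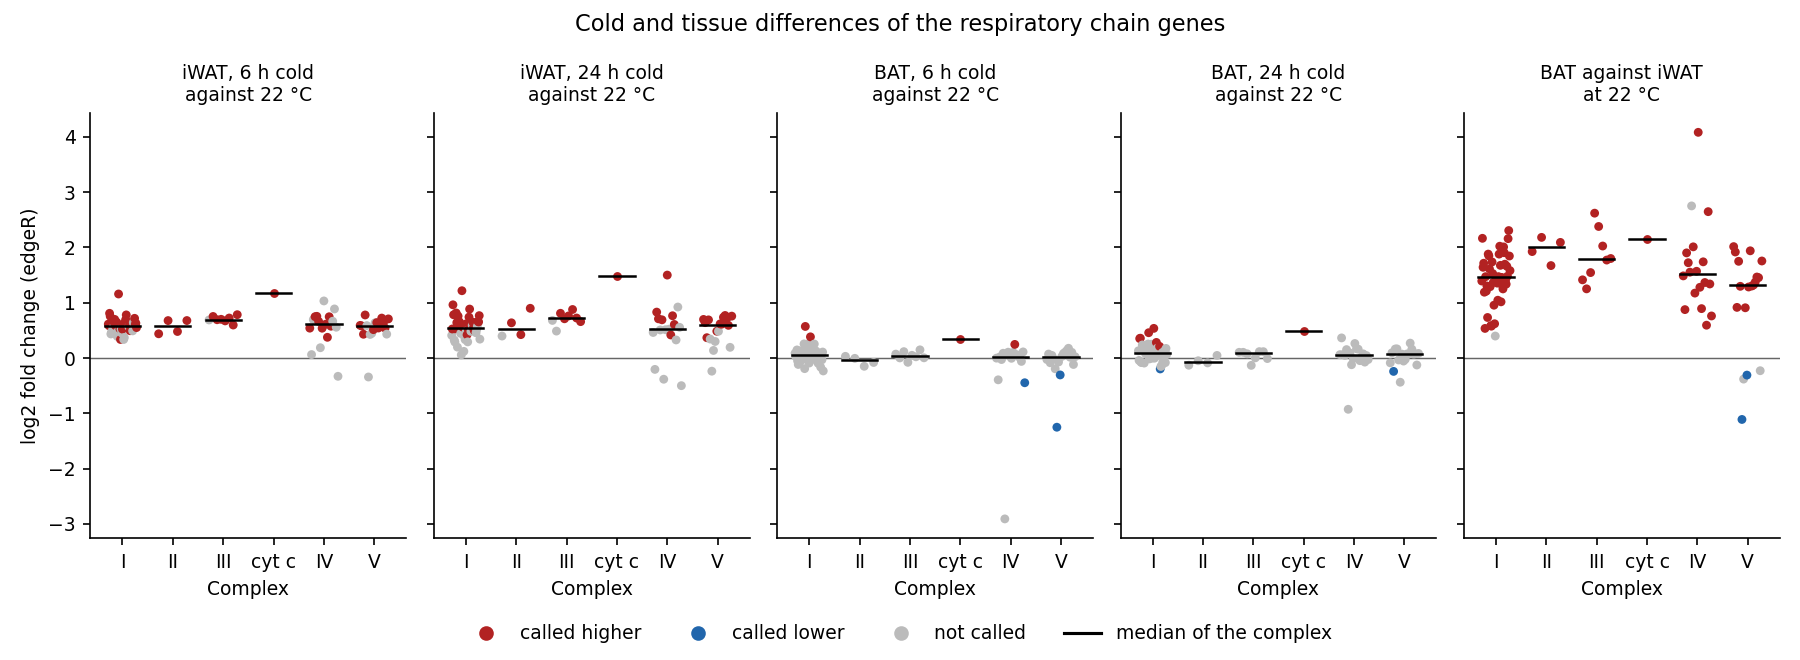
Log2 fold changes from edgeR (vertical axis) of the tested genes of each complex (horizontal axis) in each comparison drawn, one point per gene, with a line at the median of the complex and colours for genes called higher, called lower or not called at an adjusted p of 0.05. Most iWAT points lie above 0 at both cold times with medians near 0.60 and 0.56, BAT cold points centre near 0, and the points of BAT against iWAT centre at 1.47.

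Within the complexes, several genes that missed the test had changes close in size to those of genes that passed. The core subunit Ndufs7, next to the quinone site of complex I, changed by 0.62 ± 0.22, adjusted p = 0.0501 at 6 h and 0.57 ± 0.22, adjusted p = 0.0679 at 24 h. In complex III, Uqcr10 changed by 0.69 and 0.68 and missed at both times. In complex IV, Cox5a changed by 0.69 ± 0.25, adjusted p = 0.0572 at 6 h and passed at 24 h with 0.83 ± 0.25, while Cox8a, at 0.67 and 0.33, missed at both. The small F1 subunit Atp5f1e changed by 0.59 and 0.34, and the c-ring genes Atp5mc1 and Atp5mc2 by 0.43 and 0.45 at 6 h and by 0.14 and 0.30 at 24 h, with adjusted p from 0.0584 to 0.559. Of the 5 tissue isoforms of complex IV tested in iWAT, 0 passed at 6 h and 1, Cox7a1, at 24 h; the low-expressed Cox4i2 and Cox6b2 were at 0.06 and 0.19 at 6 h and at -0.21 and -0.38 at 24 h.

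Beside cytochrome c and genes of complexes I and II, described below, the largest changes that passed at 6 h were those of Uqcrq (0.78 ± 0.23) and Uqcr11 (0.75 ± 0.25) of complex III, Cox6a1 (0.75 ± 0.23) and Cox5b (0.75 ± 0.21) of complex IV and Atp5f1d (0.78 ± 0.22) and Atp5mk (0.72 ± 0.22) of complex V. At 24 h, Uqcrb rose by 0.81 ± 0.21, below Uqcrfs1 of the same complex, and complex V was led by Atp5mk (0.77 ± 0.22) and Atp5po (0.76 ± 0.18), the stalk subunit that confers oligomycin sensitivity.

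Cycs (ENSMUSG00000063694), the mobile carrier between complexes III and IV, measured 81.0, 96.0, 114, 193 and 72.0 scaled FPKM in iWAT at 22 °C, 223, 263, 141, 314 and 327 after 6 h and 364, 332, 268, 292 and 320.0 after 24 h. Replicate 4 of the controls overlapped with the lowest 6 h library, and no 24 h library overlapped with the controls. The log2 change was 1.17 ± 0.25, adjusted p = 0.00638 at 6 h and 1.49 ± 0.25, adjusted p = 0.00120 at 24 h. In percent of the BAT level at 22 °C, Cycs went from 22.4% to 51.1% and 63.5%.

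Ndufaf4 (ENSMUSG00000028261), an assembly factor of complex I, followed at 6 h. It measured 8.99, 11.2, 12.5, 16.3 and 8.82 scaled FPKM at 22 °C, 24.9, 25.9, 16.8, 31.4 and 32.1 after 6 h and 29.9, 27.2, 23.2, 26.6 and 29.0 after 24 h. It was the single chain gene of 93 whose cold libraries all lay above all controls at 6 h, a smaller share than the 5.27% of all genes. The log2 changes were 1.16 ± 0.17, adjusted p = 0.00154 and 1.22 ± 0.17, adjusted p = 0.000577. Of the other 7 assembly factors, Ndufaf1, Ndufaf6 and Ndufaf7 passed at 6 h and Ndufaf1, Ndufaf5 and Ndufaf6 at 24 h, with Ndufaf1 at 0.65 ± 0.13 and 0.56 ± 0.13. Ndufaf2 changed by 0.39 and 0.44 and Ndufaf3 by 0.48 and 0.06 on the log2 scale, with adjusted p of 0.123 and 0.0864 for the first and 0.0915 and 0.865 for the second.

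At 24 h, 7 of 93 chain genes had all cold libraries above all controls, a smaller share than the 10.4% of all genes. They were Ndufaf4, Cycs, Ndufs1, Uqcrc1, Uqcrc2, Atp5f1a and Atp5f1b. Ndufs1, the largest iron-sulphur subunit of complex I, measured 22.1, 24.0, 29.9, 36.5 and 23.0 scaled FPKM at 22 °C and 42.4, 39.6, 39.1, 40.4 and 38.5 at 24 h, a log2 change of 0.55 ± 0.17, adjusted p = 0.0295. Atp5f1a, an F1 subunit of ATP synthase, measured 243, 258, 301, 413 and 257 and 515, 523, 439, 457 and 479, a log2 change of 0.70 ± 0.15, adjusted p = 0.00530. In each of these genes the nearest control was replicate 4. A single gene was on the opposite side: Ndufa4l2, a form of a complex IV subunit known to be induced in low oxygen, had all 24 h libraries below all controls (6.27% of all genes did), at 5.14, 6.38, 5.98, 5.52 and 6.45 and then 2.71, 5.09, 3.56, 4.66 and 5.04 scaled FPKM. Its log2 change of -0.50 ± 0.18 had an adjusted p of 0.0504, and it passed with DESeq2, with upper-quartile factors and on the deposited FPKM.

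Among supernumerary subunits of complex I, Ndufa11, a membrane subunit, rose by 0.81 ± 0.19 and 0.96 ± 0.19 (adjusted p = 0.00952 and 0.00266) and Ndufb6 by 0.78 ± 0.19 and 0.89 ± 0.19. Sdhd, a membrane anchor of complex II, measured 119, 118, 137, 248 and 114 scaled FPKM at 22 °C, 206, 251, 172, 280.0 and 286 at 6 h and 327, 305, 235, 251 and 269 at 24 h. It rose by 0.68 ± 0.20 and 0.90 ± 0.20, and control replicate 4 lay within the range of the cold libraries at both 6 h and 24 h. The 6 h call of Sdhd was lost without control replicate 1, 2 or 5 or 6 h replicate 4 or 5. Uqcrfs1, the Rieske iron-sulphur protein of complex III, rose by 0.72 ± 0.21 and 0.88 ± 0.21, and Uqcrc1 by 0.70 ± 0.18 and 0.71 ± 0.18.

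The isoform genes of complex IV varied widely between iWAT libraries. Cox7a1 measured 40.8, 50.6, 16.9, 89.2 and 101 scaled FPKM after 6 h and 83.0, 91.7, 55.7, 72.1 and 109 after 24 h, against the 22 °C values above. Its log2 change was 1.03 ± 0.46, adjusted p = 0.107 at 6 h and 1.50 ± 0.46, adjusted p = 0.0285 at 24 h. Cox8b measured 392, 298, 164, 337 and 469 at 6 h and 367, 416, 221, 289 and 399 at 24 h, with 0.89 ± 0.34, adjusted p = 0.0669 and 0.92 ± 0.34, adjusted p = 0.0609. In both genes replicate 4 of the controls exceeded replicate 3 of each cold group, so the groups overlapped. Without that control library, Cox7a1 passed at 6 h with 1.55 and Cox8b passed at both times with 1.39 and 1.42, and the 24 h call of Cox7a1 was lost without control replicate 1, 2 or 5 or 24 h replicate 1, 2 or 5, with changes of 1.28 to 1.50. In complex V, Atp5mc3 rose by 0.51 ± 0.15, adjusted p = 0.0269 at 6 h and 0.48 ± 0.15, adjusted p = 0.0326 at 24 h, calls that were lost in 4 of 10 and in 7 of 10 fits with 1 library left out. Atp5if1 changed by -0.34 ± 0.12, adjusted p = 0.0516 and -0.24 ± 0.12, adjusted p = 0.164, and on the deposited FPKM with limma it was called lower at both times.

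**Figure D3:**
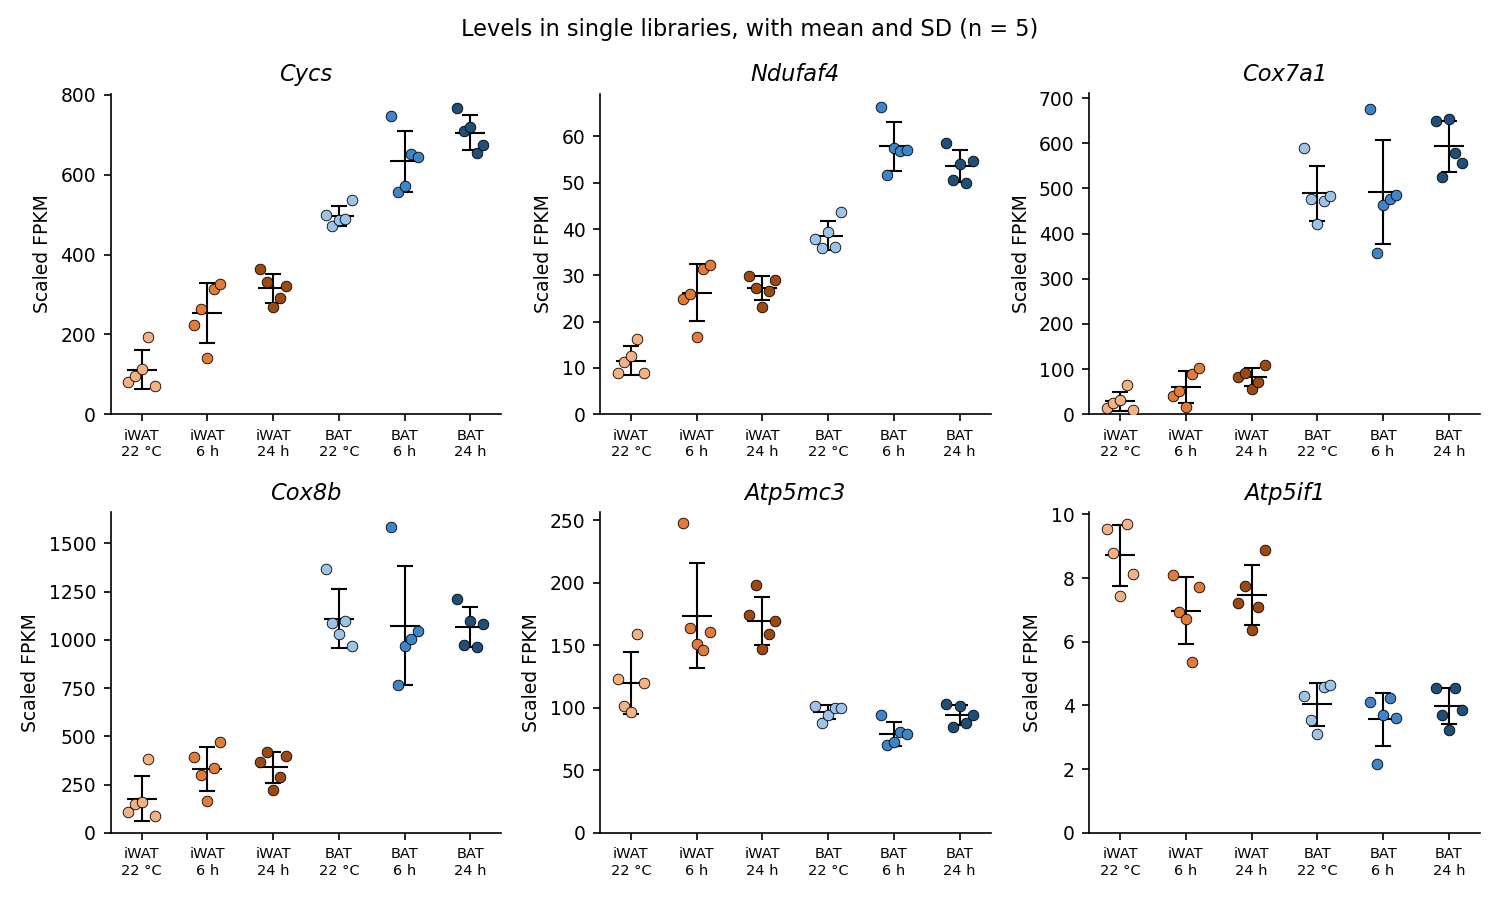
Scaled FPKM (vertical axis, from 0) of Cycs, Ndufaf4, Cox7a1, Cox8b, Atp5mc3 and Atp5if1 in single libraries of the 6 groups (horizontal axis), with the mean and SD of each group, n = 5. Cycs and Ndufaf4 climb in the cold in both tissues, Cox7a1 and Cox8b stay far below BAT in iWAT, and Atp5if1 is higher in every iWAT library than in any BAT library.

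Other markers moved with the iWAT groups, and their part in the result was not tested beyond the fits given here. The summed CPM of the 8 brown-type markers was 117, 294, 987, 1104 and 99.4 at 22 °C, 953, 2394, 710.5, 5515 and 5829 at 6 h and 4673, 3113, 3018, 3920.2 and 5074 at 24 h, with replicate 4 the highest control and replicates 1 and 3 the lowest at 6 h. The adipocyte marker sum was 20080 ± 2264 CPM at 22 °C, 26890 ± 2478 at 6 h and 25458 ± 2040 at 24 h (SD, n = 5). Its genes did not move as one. By edgeR, Cidec, Fabp4 and Retn were called higher at 6 h, and Adipoq, Lep and Plin1 were not called. At 24 h Fabp4 alone was called higher and Lep was called lower, at -1.10 (adjusted p = 0.0288). The summed CPM of progenitor and fibroblast markers was 2097, 1771, 1317, 1709 and 967 at 22 °C, 903, 641, 1257, 642 and 999.8 at 6 h and 614, 878, 1241, 940.4 and 972 at 24 h, highest in control replicate 1. A stromal covariate, the average of progenitor, macrophage and endothelial markers in a library, was added after the data were seen. With it, 0 chain genes passed at 6 h and 1, Ndufaf4, at 24 h. Cycs then changed by 0.94 (adjusted p = 0.411) and 1.30 (adjusted p = 0.0564). The mean sums of these marker lists were themselves lower in both cold groups than at 22 °C, so this fit cannot separate the covariate from cold. Leaving out 1 library at a time gave 16 to 88 genes up at 6 h and 26 to 83 at 24 h. The lowest 6 h count came without control replicate 1 or replicate 2 and the highest without control replicate 4.

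Against the BAT level at 22 °C, the median chain gene in iWAT stood at 36.1% at 22 °C, 55.8% after 6 h and 52.3% after 24 h. Ndufaf4 reached 68.0% after 6 h and 70.5% after 24 h. Cox7a1 went from 5.93% to 12.2% and 16.8%, Cox8b from 16.0% to 30.5% and Uqcrc1 from 16.3% to 26.9%. Atp5if1 stood at 216% and Atp5mc3 at 124% before cold.

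Between 6 h and 24 h in iWAT no chain gene passed the edgeR test, where 0.00731% of all genes did. Of the 93 genes, 1 had an unadjusted p under 0.05, and DESeq2 also called 0. Cycs, for example, stood at 254 ± 75.6 scaled FPKM at 6 h and 315 ± 36.8 at 24 h (SD, n = 5), with a log2 difference of 0.32 ± 0.24 that did not pass the test.

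Other genes that serve the same complexes were examined in iWAT. Of 51 tested assembly and maturation factors and further subunits, 34 rose and 0 fell in iWAT at 6 h, and 33 rose and 1 fell at 24 h, where 12.9% and 12.8% of all genes rose. Hccs, the lyase that attaches haem to cytochrome c, rose by 1.03 ± 0.20 and 1.30 ± 0.20, Cox11, a copper chaperone of complex IV, by 0.92 ± 0.19 and 1.29 ± 0.19, and Cox10, which makes haem for complex IV, by 1.15 ± 0.15 and 1.16 ± 0.15. The gene that fell was Nubpl, an iron-sulphur factor for complex I, at -0.35. Of the 13 subunits encoded by mitochondrial DNA, 3 rose at 6 h, where 12.9% of all genes rose. They were mt-Nd1 (0.71 ± 0.19), mt-Nd2 (0.61 ± 0.18) and mt-Nd3 (0.67 ± 0.20). At 24 h, 1 of the 13 rose, where 12.8% of all genes did. Of 16 regulators of mitochondrial biogenesis, 7 rose at 6 h and 10 at 24 h, with the coactivators Ppargc1a at 2.52 ± 0.42 and Ppargc1b at 1.63 ± 0.26 and the receptor Esrrb at 2.43 ± 0.68 after 6 h.

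In BAT, cold changed few chain genes. After 6 h, 4 of 94 rose and 3 fell, where 12.5% of all 13090 genes rose and 10.2% fell. At 24 h, 7 rose and 2 fell, against 12.8% and 10.4%. The median log2 change of the 94 genes was 0.04 at 6 h and 0.07 at 24 h. The 97 genes took 3.56% to 4.34% of the counts in single BAT libraries. Both cold groups were again compared with the same controls.

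Cycs and Ndufaf4 rose in BAT as well. Cycs measured 498, 471, 486, 488 and 536 scaled FPKM at 22 °C, 747, 555, 570.3, 653 and 643 after 6 h and 768, 709.8, 718, 655 and 674 after 24 h. Ndufaf4 measured 37.8, 36.0, 39.3, 36.2 and 43.6, then 66.4, 51.6, 57.4, 56.8 and 57.2, then 58.6, 50.7, 54.1, 50.0 and 54.6. In both genes every cold library lay above every control at both times. They were the 2 of 94 chain genes with that pattern at 6 h, a smaller share than the 9.76% of all genes. The log2 changes of Cycs were 0.34 ± 0.07, adjusted p = 0.00313 at 6 h and 0.49 ± 0.07, adjusted p = 0.000149 at 24 h. Those of Ndufaf4 were 0.57 ± 0.07, adjusted p = 4.0e-05 and 0.46 ± 0.07, adjusted p = 0.000247. The calls of Ndufaf4 held under every alternative setting run, and those of Cycs under all but the fit of all 30 libraries together, where its changes were 0.35 (adjusted p = 0.216) and 0.51 (adjusted p = 0.0678).

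Ndufb2 rose by 0.38 ± 0.10, adjusted p = 0.0142 and 0.54 ± 0.10, adjusted p = 0.00137. It measured 2.37, 2.74, 2.61, 2.06 and 2.03 scaled FPKM at 22 °C, 2.84, 2.72, 3.33, 3.12 and 3.54 at 6 h and 3.22, 3.62, 3.20, 3.74 and 3.54 at 24 h, and the 24 h libraries did not overlap with the controls. Cox7a2l, which helps to join complexes III and IV into supercomplexes, rose at 6 h by 0.25 ± 0.08, adjusted p = 0.0411. It lost the call under 11 of 22 alternative settings, 8 of them the omission of 1 library. At 24 h the remaining genes that rose were all supernumerary subunits of complex I: Ndufa11 by 0.35 ± 0.10, Ndufa12 by 0.36 ± 0.08, Ndufb6 by 0.28 ± 0.09 and Ndufc2 by 0.21 ± 0.07. At 24 h, 9 of 94 chain genes had all cold libraries above all controls and 2 had them all below. Both shares were smaller than the 11% and 7.2% of all genes.

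Of the 5 genes that fell in BAT at either time, 3 belonged to complex V. At 6 h the c-ring gene Atp5mc3 measured 101, 88.1, 94.2, 100.2 and 100.1 scaled FPKM at 22 °C and 93.9, 69.9, 72.3, 80.4 and 78.8 after cold, a log2 change of -0.31 ± 0.08, adjusted p = 0.00927. Replicate 1 of the 6 h group lay within the control range and the other 4 lay below it. Its lowly expressed relative Atp5mc1 fell, with a log2 change of -1.25 ± 0.41 (adjusted p = 0.0349), from control values of 2.58, 0.987, 2.05, 4.35 and 5.98 to 1.28, 1.88, 1.32, 1.01 and 1.28. Control replicate 2 lay below the whole cold group and the other 4 lay above all of it, so the groups overlapped. The Atp5mc1 call was lost when any 1 of 6 libraries was left out, with a change of -0.89 without control replicate 5 and -1.12 without control replicate 4, and with the skeletal muscle markers as a covariate it was -0.41 (adjusted p = 0.425). Ndufa4l2 fell at 6 h, with a log2 change of -0.45 ± 0.14 (adjusted p = 0.0255). It ranged over 8.66 to 10.9 scaled FPKM at 22 °C and 5.77 to 9.28 at 6 h, where replicate 1 alone lay within the control range, and the call was lost without control replicate 4 or 5 or 6 h replicate 5. At 24 h, Atp5f1c, the rotor shaft of ATP synthase, fell, with a log2 change of -0.24 ± 0.06, adjusted p = 0.00838. Ndufs1 also fell at 24 h, with -0.20 ± 0.06, adjusted p = 0.0173. It ranged over 103 to 116 scaled FPKM at 22 °C and 86.3 to 102 at 24 h without overlap, and missed the test at -0.17 without 24 h replicate 4.

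The BAT counts leaned on single libraries. Replicate 1 at 6 h was the highest for 89 genes, and without it 12 genes passed at 6 h, 3 higher and 9 lower. Without control replicate 5, or without 6 h replicate 5, 4 genes passed. At 24 h the count was 6 to 9 when 1 library was left out. In a fit of the control and 24 h groups alone it was 18.

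From 6 h to 24 h in BAT, 5 of 94 chain genes rose and 2 fell, shares no larger than the 6.6% and 6.45% of all genes. Cox4i2, the low-oxygen form of the regulatory complex IV subunit, measured 3.81, 2.53, 2.41, 2.55 and 1.79 scaled FPKM at 6 h and 5.20, 3.43, 4.83, 4.45 and 4.19 at 24 h, a log2 change of 0.76 ± 0.20, adjusted p = 0.0223. The 6 h replicate 1 lay within the 24 h range and the other 4 lay below it. Atp5mc3 rose again by 0.25 ± 0.08, adjusted p = 0.0423, from 79.1 to 94.3 scaled FPKM, close to its 22 °C mean of 96.8. Ndufaf3 rose by 0.45 ± 0.12, Ndufa11 by 0.32 ± 0.10 and Ndufv3 by 0.30 ± 0.09, while Ndufs1 and Sdha fell, with log2 changes of -0.19 ± 0.06 and -0.16 ± 0.05. The count of 7 went to 16 without 6 h replicate 1 and to 0 without 24 h replicate 1, and the split was 6 higher and 0 lower with upper-quartile factors and 11 and 0 on the deposited FPKM.

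Among the other genes serving these complexes in BAT, 6 of 51 rose and 3 fell at 6 h, a share of risers close to the 12.5% of all genes. At 24 h, 16 rose and 3 fell, where 12.8% of all genes rose and 10.4% fell. Hccs rose by 0.79 ± 0.07, adjusted p = 2.3e-06 at 6 h. Cmc2, an assembly factor of complex IV, rose at 24 h by 0.80 ± 0.09, Cox10 by 0.63 ± 0.07 and Sdhaf4, an assembly factor of complex II, by 0.61 ± 0.09. Cox20, a chaperone of a core complex IV subunit, fell at 24 h, with -1.04 ± 0.33. Of the 13 mitochondrially encoded subunits 0 passed at 6 h and 1 fell at 24 h, mt-Cytb with -0.29 ± 0.09. Of the 16 regulators, 5 rose at 6 h and 6 at 24 h, with Ppargc1a at 2.39 ± 0.27 and Esrrb at 2.01 ± 0.22 after 6 h.

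Skeletal muscle markers varied widely between BAT libraries and were lower on average in both cold groups. Their summed CPM over 12 genes was 1956, 252, 1907, 5192 and 8369 at 22 °C, 18.5, 1495, 369, 29.0 and 386 at 6 h and 34.1, 23.7, 1331, 851 and 4326 at 24 h. The mean sums were 3535, 460 and 1313 CPM. Every tested marker had a negative log2 change in BAT at both cold times. By edgeR, Mb (-2.63, adjusted p = 0.0250) and Myh2 (-4.70, adjusted p = 0.0327) were called lower at 6 h, and no marker was called at 24 h. Muscle content thus changed together with cold in BAT, and its part was not tested beyond the covariate fits. Cox6a2 (ENSMUSG00000030785), the heart and skeletal muscle form of a complex IV subunit, measured 13.4, 0.806, 12.4, 33.4 and 52.1 scaled FPKM at 22 °C, 0.0589, 10.9, 1.62, 0 and 2.21 at 6 h and 0.0453, 0, 12.2, 6.41 and 41.0 at 24 h. It was high in the libraries where the muscle markers were high and at or near 0 where they were low. In iWAT it was 0.0552, 16.8, 0, 0.0417 and 0.0299 at 22 °C, and replicate 2, the one library with it, had a muscle marker sum of 3271 CPM against 3.03 to 7.91 in the others. With the muscle markers as a covariate, added after the data were seen, the 24 h change of Cox6a2 in BAT turned from -0.93 ± 1.15, adjusted p = 0.604 to 0.75, adjusted p = 0.00350. Since Cox6a2 followed these same markers, that value is what their fit left over and no measure of a rise in cold. Cox7a1, which is also a muscle gene, measured 589.7, 477, 422, 472 and 482 scaled FPKM in the 5 BAT libraries at 22 °C whose marker sums are given above. Its highest value was in replicate 1, with a sum of 1956 CPM, and its lowest in replicate 3, with 1907 CPM.

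**Figure D4:**
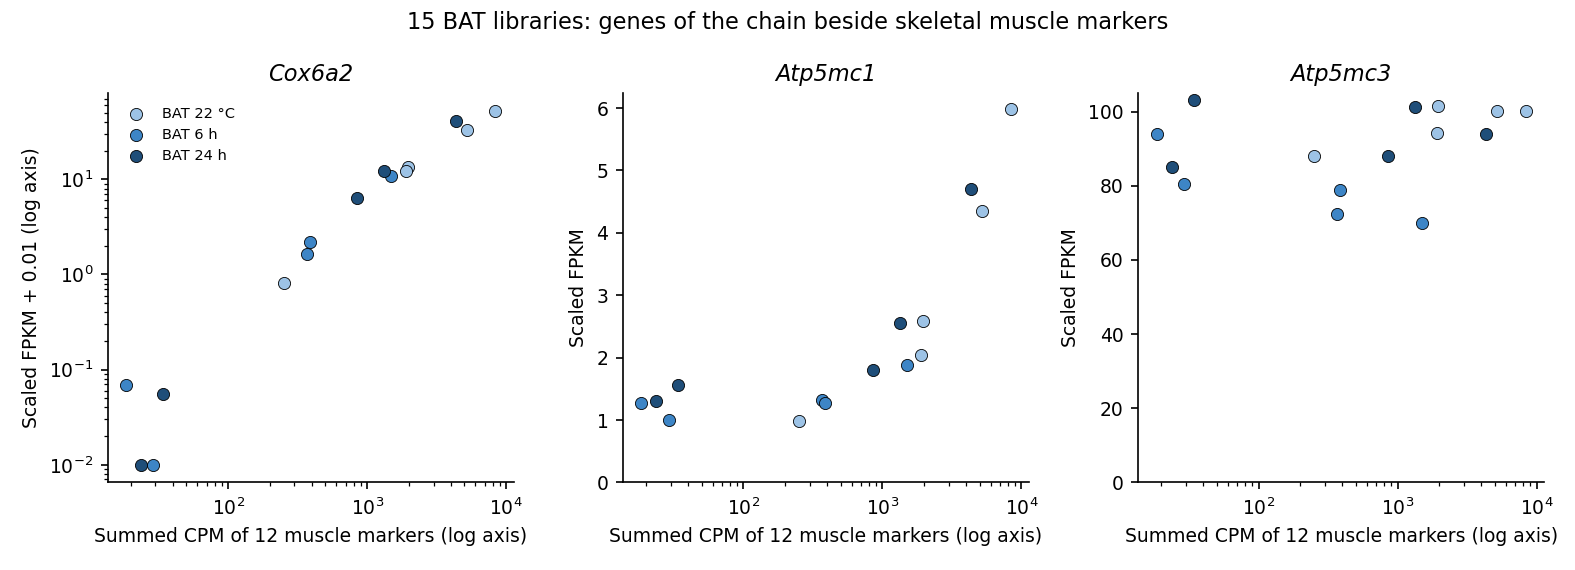
Scaled FPKM of Cox6a2, Atp5mc1 and Atp5mc3 (vertical axes, that of Cox6a2 logarithmic after adding 0.01) against the summed CPM of 12 skeletal muscle markers (horizontal axis, logarithmic) in the 15 BAT libraries, coloured by group. Cox6a2 runs from 0 to 52.1 as the marker sum grows, the highest Atp5mc1 values lie at high sums, and Atp5mc3 lies between 69.9 and 103 throughout.

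The difference between the tissues' responses was tested in one model over all 30 libraries. At 6 h, 18 of 94 chain genes had a smaller log2 change in BAT than in iWAT and none a larger one, against 6.03% of all genes with a smaller change. At 24 h the count was 14, against 4.85%. The median difference, BAT minus iWAT, was -0.57 at 6 h and -0.52 at 24 h.

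The genes with a smaller BAT response came from complexes I, II, III and V at both times and included cytochrome c at 24 h. In complex I, Ndufv3 differed by -0.79 ± 0.20, adjusted p = 0.0136 and Ndufa11 by -0.78 ± 0.23, adjusted p = 0.0303 at 6 h, and Ndufs1 by -0.74 ± 0.19, adjusted p = 0.0156 at 24 h. In complex II, all of Sdhb, Sdhc and Sdhd passed at 6 h, with Sdhd at -0.76 ± 0.22, adjusted p = 0.0301, and Sdha, Sdhb and Sdhd at 24 h. Uqcrc1 differed by -0.79 ± 0.21 and -0.84 ± 0.21 and Uqcrc2 by -0.63 ± 0.19 and -0.76 ± 0.19. In complex V the largest differences at 6 h were those of the c-ring genes that fell in BAT, Atp5mc1 at -1.69 ± 0.46, adjusted p = 0.0200 and Atp5mc3 at -0.83 ± 0.18, adjusted p = 0.00530. The BAT fall of Atp5mc1 leaned on single libraries and was smaller with the muscle marker covariate, as given above. That covariate was not fitted to the difference between tissues. Cycs and Ndufaf4 rose in both tissues but, on the log2 scale, less so in BAT at 24 h, with differences of -0.99 ± 0.28, adjusted p = 0.0254 and -0.76 ± 0.20, adjusted p = 0.0189. At 6 h their differences of -0.83 ± 0.28 and -0.59 ± 0.20 missed the test (adjusted p = 0.0532 and 0.0581). In scaled FPKM, mean Cycs went from 111 at 22 °C to 315 at 24 h in iWAT and from 496 to 705 in BAT. The counts of genes with a smaller BAT response moved most with iWAT control replicate 4: without it they were 82 at 6 h and 70 at 24 h.

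Isoform pairs were compared as ratios of FPKM within a library, which share any effect of depth, by a two-sided exact permutation test on log2 ratios in 38 comparisons. The smallest p that 5 against 5 libraries can give is 0.00794. With 0.1 added to each FPKM, as here, it adjusts to 0.0503, so no pair passed 0.05. With 1 added instead, 7 comparisons passed, with nothing added 6 did, and on ratios of counts none did. Cox7a1 over Cox7a2, its ubiquitous counterpart, had a geometric mean of 0.157 in iWAT at 22 °C, 0.211 at 6 h and 0.357 at 24 h. The 24 h and 22 °C libraries did not overlap, with an exact p of 0.00794. In BAT the same ratio was 1.28, 1.18 and 1.37. Cox8b over Cox8a was 0.436 in iWAT at 22 °C and 0.721 at 24 h (exact p = 0.0397, adjusted p = 0.108), against 1.98 in BAT at 22 °C. Both ratios were above 1 in every BAT library and below 1 in every iWAT library.

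Other pairs are given for comparison. Ndufa4l2 over Ndufa4 was 0.0378 in iWAT at 22 °C, 0.0198 at 6 h and 0.0174 at 24 h, with exact permutation p of 0.0159 and 0.0238. In BAT it was 0.0242 at 22 °C and 0.0167 at 6 h without overlap (exact p = 0.00794), and 0.0229 at 24 h. Atp5mc3 over Atp5mc2 was 2.78 in iWAT and 1.19 in BAT at 22 °C, with no overlap between tissues. It was 3.14 in iWAT at 24 h (exact p = 0.0317, adjusted p = 0.0928) and 1.02 in BAT at 6 h (exact p = 0.0317). Cox4i2 reached at most 0.0113 of Cox4i1 and Cox6b2 at most 0.00625 of Cox6b1 in any library.

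**Figure D5:**
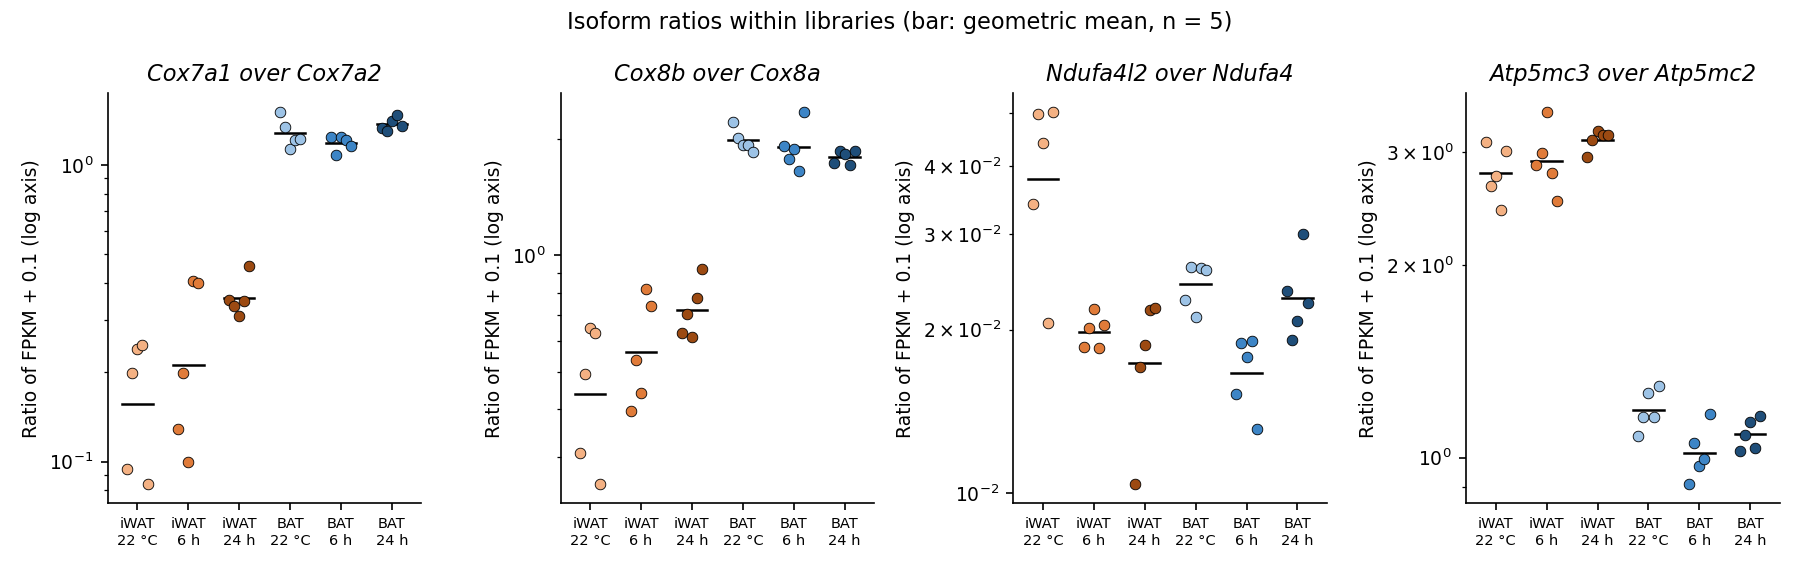
Ratios of FPKM + 0.1 between isoform genes within single libraries (vertical axis, logarithmic) in the 6 groups (horizontal axis), with a bar at the geometric mean of each group, n = 5. Cox7a1 over Cox7a2 climbs in iWAT from 0.157 to 0.357 at 24 h and lies above 1 in every BAT library.

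Of the 97 genes, 3 were not tested in any comparison because their counts were too low. Cox8c, a testis form of complex IV, and Ndufb11b had 0 counts in all 30 libraries, and Cox7b2 had 1 count in a single BAT library. Cox6a2 was not tested within iWAT.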

How the data were processed

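PolyA RNA of 30 libraries was sequenced from NEBNext Ultra II libraries, per the labels' protocols. The authors deposited raw read counts per gene and FPKM, and per the submitters' processing notes the tools included HISAT2 and HTSeq and the build was GRCm39; versions, strand and annotation are not given in the sources used here. From the counts, genes were kept with edgeR's filterByExpr (minimum count 10), scaled by TMM and tested with the quasi-likelihood test of edgeR 4.0.16 (R 4.3.3), with Benjamini-Hochberg adjustment over all genes tested at 0.05. Each tissue's 3 groups were fitted together, and comparisons between tissues used all 30 libraries. Fold changes are log2 with standard errors. Replicate pairs differed by more than counting noise, with a chi-square per degree of freedom of 14.0 to 181. Replicate numbers were not treated as pairs; the labels used here do not say whether iWAT and BAT of one number share a mouse. Scaled FPKM is the deposited FPKM divided by the TMM scale. Alternatives used DESeq2 1.42.0, limma 3.58.1 on log2(FPKM + 1) and log2(FPKM + 0.1), other factors and filters, a replicate block and single libraries left out. The edgeR script was tested on simulated data. The 97 genes, the other gene lists and the tests were chosen with earlier results of these data known. Genes named were the isoform pairs, a list of leading subunits, up to 2 called genes with the largest rise or fall of each complex, and members of roles where 5 or fewer passed or failed; Ndufaf4 and the muscle markers gained weight after their values were seen. The counts over the chain genes include 1 gene that is not reported by name here and is left out of the heat map. Mitochondrially encoded genes were matched by Ensembl identifier.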

Additional observations from a re-analysis of the deposited data

Results flagged for a closer look

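In 24 of the 186 groups of 5 libraries examined (means over the chain genes, complex sums and single genes), 1 library stood apart from the other 4 by more than Dixon's critical value of 0.71 of the group's range. For independent, normally distributed values that happens in about 1 in 20 groups. The groups here share libraries and genes, so 24 of 186 cannot be set against that rate. Most of the 24 libraries that stood apart were replicate 4 of iWAT at 22 °C, where the mean log2 CPM of the chain genes was 6.90. Its subunit sums were the highest of the group at 3436 scaled FPKM for complex I, 646 for complex II, 2023 for complex III, 3967 for complex IV and 2347 for complex V. It was also highest for the complex IV genes Cox7a2 (258 scaled FPKM), Cox8b (382), Cox8a (608), Cox6a1 (494) and Cox7a2l (95.0), for Atp5mc2 (65.3) and Atp5f1c (226) of complex V, and for Sdhd (248), Uqcrfs1 (370) and Ndufa12 (80.3). In the same group, replicate 2 was highest for Cox6a2 at 16.8, beside its muscle marker sum of 3271 CPM. At 6 h in iWAT, replicate 1 was highest for Atp5mc1 (8.61) and Atp5mc3 (248) and replicate 3 lowest for Atp5f1c (188). In BAT, replicate 4 at 22 °C was lowest for Sdha (572), replicate 2 at 6 h highest for Cox6a2 (10.9), and replicate 1 at 24 h highest for Cox6a1 (1245) and Cox7a2l (169.8).

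The response to cold differed between the tissues for 18 genes at 6 h and 14 at 24 h, by the interaction test of edgeR, with a smaller log2 change in BAT in each. At 6 h the differences, BAT minus iWAT, included -1.69 for Atp5mc1, -0.83 for Atp5mc3, -0.69 for Atp5po, -0.63 for Atp5f1a and Atp5pb and -0.52 for Atp5f1c in complex V. In complex I they were -0.79 for Ndufv3, -0.78 for Ndufa11, -0.64 for Ndufs3 and Ndufv1, -0.62 for Ndufb10 and -0.55 for Ndufaf1. In complexes II and III they were -0.76 for Sdhd, -0.69 for Sdhb, -0.64 for Sdhc, -0.79 for Uqcrc1 and -0.63 for Uqcrc2. At 24 h they included -0.99 for Cycs, -0.85 for Sdhd, -0.68 for Sdhb and -0.53 for Sdha, and -0.84 for Uqcrc1, -0.76 for Uqcrc2 and -0.76 for Uqcrfs1. Complex I had -0.76 for Ndufaf4, -0.74 for Ndufs1 and -0.73 for Ndufv1, and complex V -0.78 for Atp5f1a, -0.64 for Atp5pb and -0.61 for Atp5f1c. These differences share their control libraries across the 2 times. The BAT fall of Atp5mc1 at 6 h leaned on single libraries and was smaller with the muscle marker covariate.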

How the results depend on the processing

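The median change of the chain genes kept its sign under the 4 other scalings in 7 of the 9 comparisons. It turned from 0.04 to -0.02 in BAT at 6 h and from -0.02 to 0.07 between times in iWAT with limma on FPKM. The number past the threshold depended on settings and single libraries. The iWAT count of 63 genes at 6 h became 29 and 30 with limma on log2(FPKM + 1) and log2(FPKM + 0.1), 31 with only the groups compared, 16 with the skeletal muscle covariate and 0 with the stromal covariate, and ranged from 16 to 88 when 1 library was left out. It fell below 42 without control replicate 1, 2, 3 or 5 (16, 16, 31 and 29) or 6 h replicate 1, 2 or 5 (34, 39 and 24). The 24 h count of 56 became 26 with the muscle and 1 with the stromal covariate, and ranged from 26 (without control replicate 2) to 83 (without control replicate 4), with 27, 30 and 27 without control replicates 1, 3 and 5 and 30, 28 and 37 without 24 h replicates 1, 2 and 5. In iWAT the muscle marker sum was high in control replicate 2 alone, so the muscle covariate largely marks that library. Its omission gave the same counts, 16 and 26. The iWAT count between 6 h and 24 h stayed at 0. In BAT the 6 h count of 7 became 3 with all 30 libraries and ranged from 4 to 12, and the 24 h count of 9 became 18 with only the groups compared and 2 with all 30 libraries and ranged from 6 to 9. The BAT count of 7 between times became 2 without a filter, 11 and 11 with limma, 2 with only the groups compared, 0 with all 30 libraries and 2 with the stromal covariate. It ranged from 0 to 16, with 2, 3, 2 and 1 without 6 h replicates 2, 3, 4 and 5 and 3, 2 and 3 without 24 h replicates 3, 4 and 5. The count of 90 between tissues stayed at 85 to 91. For the difference of responses the 6 h count of 18 became 40 with DESeq2 and 7 with only the groups compared and ranged from 7 to 82, with 48 without iWAT 6 h replicate 3 and 51 without BAT 6 h replicate 1. It was 8, 7, 11 and 8 without iWAT control replicates 1, 2, 3 and 5, 11 and 8 without iWAT 6 h replicates 4 and 5, and 8, 10 and 9 without BAT 6 h replicates 2, 3 and 5. The 24 h count of 14 became 26 with DESeq2 and ranged from 8, without iWAT control replicate 1 or 2, to 70. The replicate block gave 66 and 60 in iWAT, 8 and 14 in BAT, 10 between BAT times, 91 between tissues and 26 and 21 for the difference of responses; in no pair of groups did every same-numbered pair correlate over 0.1, though 4 of 5 did between iWAT and BAT at 24 h, and between BAT at 22 °C and at 24 h.

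Among single genes, 2 reversed in sign with a call in either fit. Cox6a2 in BAT at 24 h was 0.75 with the covariate of muscle markers, which Cox6a2 itself followed. Ndufaf3 between tissues was -0.018 on log2(FPKM + 1) and -0.020 on log2(FPKM + 0.1). The causes were not tested. Of the other values of single genes and ratios, 9743 kept their call or stayed without one, 277 gained and 681 lost a call. Changes of sign in values without a call in either fit were not counted. The median change of all genes in iWAT at 6 h was -0.03 with TMM, -0.10 with upper-quartile factors and -0.25 on log2(FPKM + 0.1); the chain genes split 45 higher and 1 lower, and 28 and 2, on the last pair. Both covariates were chosen after seeing the data, and the stromal markers differed between the control and cold groups of iWAT. Counting depth limits the genes at or near 0 counts, Cox7b2, Cox8c and Ndufb11b in both tissues and Cox6a2 in iWAT.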
